A study of Macaca fascicularis with 16 samples.

Results

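The tripartite motif (TRIM) family of ubiquitin ligases was followed in the blood mononuclear cells of 4 cynomolgus macaques (Macaca fascicularis) given NKTT320, an antibody that binds the T-cell receptor shared by invariant natural killer T cells. Members were all gene symbols that begin with TRIM followed by a digit, which gave 80 of the 23602 symbols in the count tables. The animals, LG04, LG11, LG12 and LG15, were Mauritian-origin macaques with no stated genetic change and no age in the labels. Each was bled before treatment and 30 minutes, 2 hours and 1 day after NKTT320, so the 4 groups are 4 bleeds of the same 4 animals and hold 16 libraries. Untreated animals were not analysed here, so drug, elapsed time and repeated bleeding cannot be told apart. RNA was taken from unfractionated mononuclear cells, in which fewer cells of a type and less RNA per cell cannot be told apart.

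TRIM proteins typically carry a RING finger, B-boxes and a coiled coil, and the RING finger passes ubiquitin to other proteins. Their C-terminal domains set what they bind. Many with a B30.2/SPRY domain act in antiviral defence, those with a bromodomain act on chromatin, and those with NHL repeats are known from RNA and protein turnover. In blood, several members are induced by type I interferon, and others belong to the red-cell lineage.

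Total counts ranged from 1417467 to 8582852 per library, and the members took between 2521 and 14659 of them. Defining markers of T cells (6 of 6), B cells (6 of 6), NK cells (6 of 6) and monocytes (7 of 7) were above 0, and GP1BB of the platelet list and IL3RA of the plasmacytoid dendritic cell list were at 0. Globin genes, which mark red cells, took from 0.0253% of the counts in LG12 at 30 minutes to 48.7% in LG04 at 2 hours. Levels are therefore given as CPM, counts scaled to library size, with the sizes multiplied by a TMM factor, which discounts a few very abundant genes. That factor ranged from 0.460 in LG04 at 2 hours to 1.27 in LG12 before treatment. The library labelled LG04 at 1 day stood nearest to LG15 at 1 day (root mean square difference 0.625 on the log2 scale over the genes tested) and to LG15 before treatment (0.711). It was 0.980 from LG15 at 30 minutes and 1.05 from LG15 at 2 hours. From the other 3 libraries of LG04 it was 1.01 to 1.16. Whether it was misplaced was not tested. Counts over 4 animals and values of cell-type markers include it. Fitted 1 day values of members that it moved are also given without it.

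Of the 80 members, 55 had at least 1 count and 25 had none in any library. A filter on low counts kept 37 members, which are the ones tested. The 18 counted members that were left out had at most 163 counts over all 16 libraries (TRIM67), and the lowest tested member, TRIM17, had 96. All 37 tested members carry their symbol in the macaque RefSeq gene table (assembly T2T-MFA8v1.1), against 12 of the 18 counted but untested members and 7 of the 25 at 0.

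Between genes, levels were compared in deposited FPKM, which corrects for gene length. TRIM22, an interferon-induced antiviral ligase, was the highest member with a mean of 104.9 FPKM over the 16 libraries, 2.63 times the mean of TRIM28. TRIM58, a ligase of maturing red cells, followed with 45.3 FPKM but ranged from 0.282 to 209. TRIM28 (39.9 FPKM), the co-repressor of KRAB zinc-finger proteins, TRIM38 (26.6), a regulator of Toll-like receptor signalling, and TRIM8 (24.2), a regulator of cytokine signalling, came next. TRIM33 had 20.2, TRIM52 18.7, TRIM44 18.5 and TRIM25 18.5 FPKM, and the ranges of these 4 members overlapped almost completely. Of the family, 16 members lay above the 75th percentile of all genes. In TRIM22, TRIM38, TRIM33, TRIM44 and TRIM25 the lowest library was from LG04, and FPKM is a share of all reads, globin included.

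**Figure D1:**
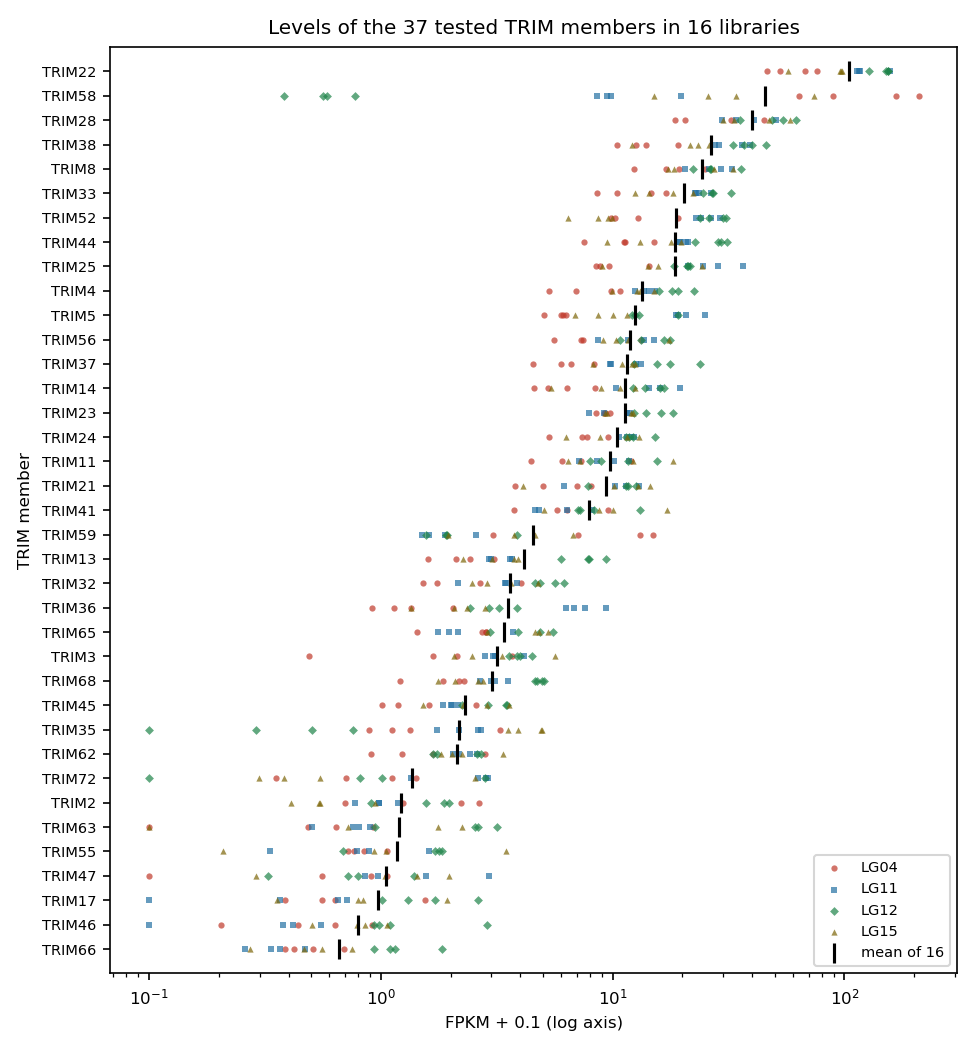
Deposited FPKM plus 0.1 (log axis) of the 37 tested TRIM members in each of the 16 libraries, coloured by animal, with the mean over libraries as a black bar. TRIM22 leads with a mean of 104.9 FPKM, and TRIM58 spreads from 0.282 in LG12 to 209 in LG04.

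No member passed the test at any time. In edgeR's quasi-likelihood test with the animal as a block and p-values adjusted over 11545 genes, 0 of 37 members were called at an adjusted p under 0.05 at 30 minutes, 2 hours or 1 day against pre-treatment. Of all genes tested, 0%, 0% and 0.225% were called in these 3 comparisons. Between 30 minutes and 2 hours 0 members were called (0% of all genes), between 2 hours and 1 day 0 (0.104% of all genes), and among the 4 times together 0 (0.104% of all genes). DESeq2, fitted to 55 members, also called 0 in each of the 6 tests. Its default filter can leave genes of low mean count without an adjusted p, and such genes count as not called. Of these members 10 had 1 to 9 counts over all libraries, which leaves little room for a call. The smallest edgeR adjusted p of any member was 0.273, for TRIM25 between 2 hours and 1 day. The standard error (SE) of a member's log2 change against pre-treatment had a median near 0.25 in each comparison (0.245, 0.247 and 0.253 in order of time), from 0.115 for TRIM22 to 0.780 for TRIM72.

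At 30 minutes no member had an unadjusted edgeR p under 0.05, and the median log2 change of the 37 was 0.05, against 0.02 for all genes tested. TRIM5 and TRIM63 were higher in 4 of 4 animals and TRIM52 lower in 4 of 4. Over all genes tested, 6.21% were higher and 4.42% lower in all 4 animals, so these counts are near the background. At 2 hours the members' median was 0.16, against 0.02 for all genes, and 26 of 37 were above 0 (6085 of all 11545 genes). Without LG15 that median was 0.04, and without the 4 shallowest libraries 0.06. TRIM2, TRIM21, TRIM22, TRIM23, TRIM55 and TRIM58 were higher in 4 of 4 animals and TRIM52 lower in 4 of 4, where the background was 8.06% higher and 6.52% lower. At 1 day the median was 0.07, against 0.00 for all genes, and it was -0.08 without LG15 and 0.09 without the 1 day library of LG04. TRIM5, TRIM23 and TRIM35 were then higher in 4 of 4 animals (background 9.83%) and TRIM14, TRIM25 and TRIM37 lower in 4 of 4 (background 9.09%). Between 2 hours and 1 day the members' median was -0.03, against -0.02 for all genes, and its sign turned without LG04 (0.02), without its 1 day library alone (0.04), without LG15 (0.0046) and without the 4 shallowest libraries (0.07). The comparisons with pre-treatment share those 4 libraries, so they are given side by side only.

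**Figure D2:**
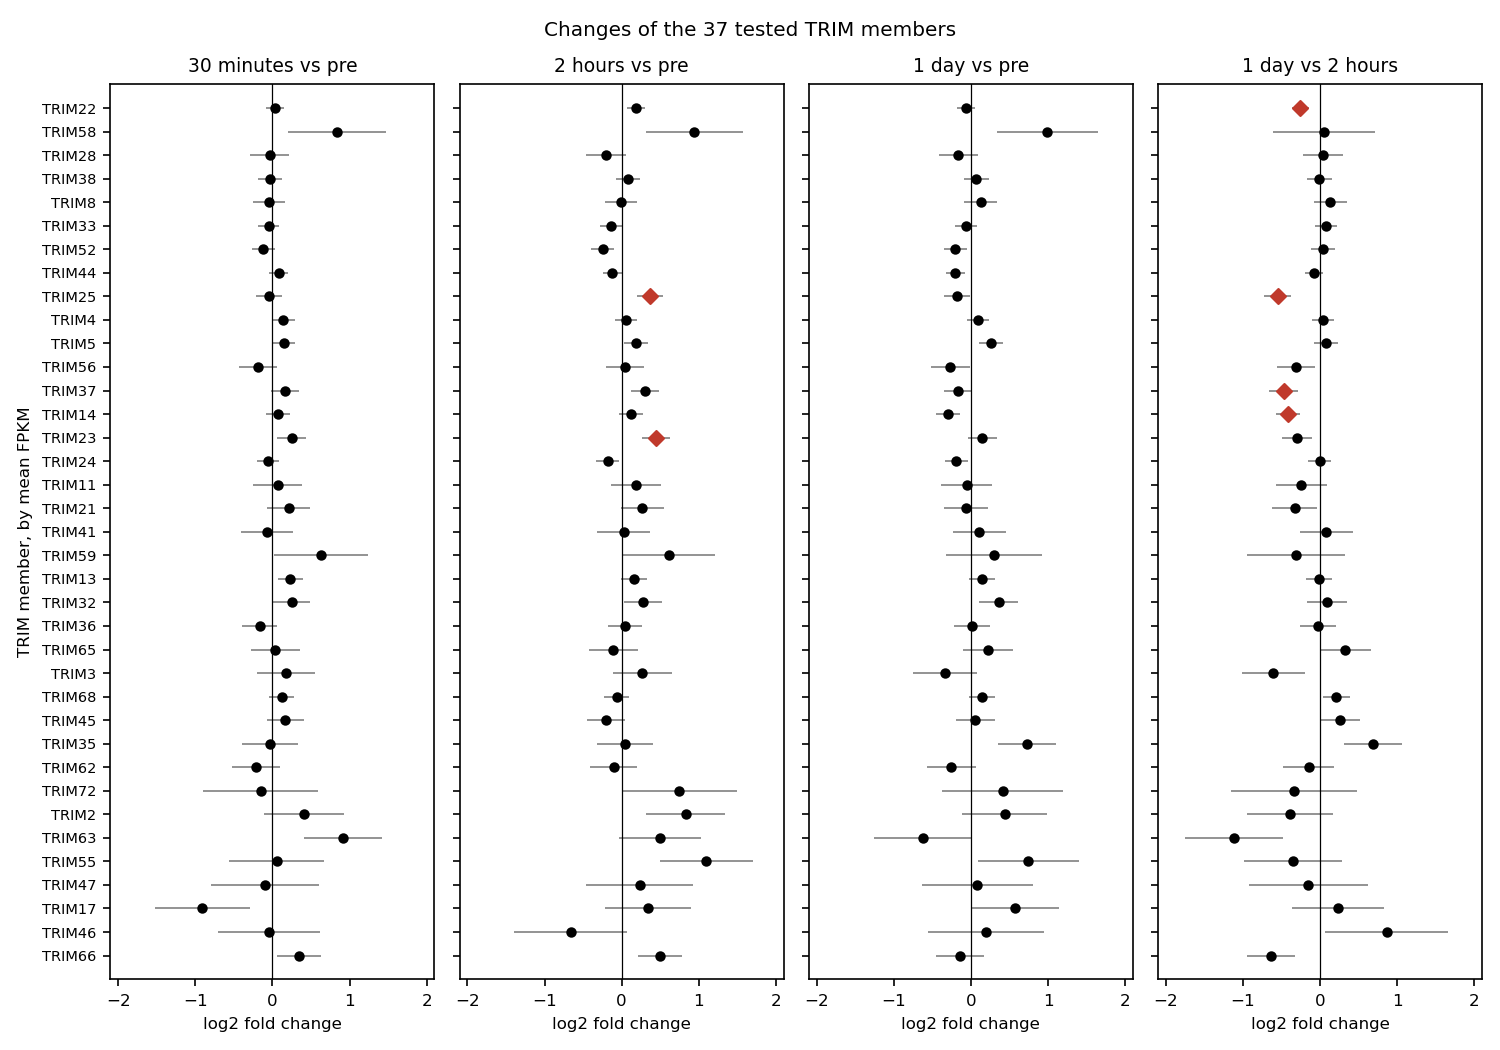
Log2 fold change with its standard error (bars) of the 37 tested members in 4 comparisons, ordered by mean FPKM. Red diamonds mark an unadjusted edgeR p under 0.05, which 2 members had at 2 hours against pre-treatment and 4 members at 1 day against 2 hours. None passed the adjusted threshold.

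The interferon-linked and antiviral members were TRIM5, TRIM6, TRIM14, TRIM21, TRIM22, TRIM25, TRIM34, TRIM38, TRIM56 and TRIM69, of which 7 were tested. At 2 hours 7 of 7 were above pre-treatment (6085 of all 11545 genes). The median log2 change was 0.19, with a range of 0.04 to 0.37. By animal that median was 0.02 in LG04, 0.42 in LG11, 0.01 in LG12 and 0.24 in LG15. At 1 day 6 of 7 were below their 2 hour level (5993 of all 11545 genes) with a median of -0.31. None of these changes was called. Without LG11, 5 of 7 were above pre-treatment at 2 hours with a median of 0.09, and without LG15, or without the 4 shallowest libraries, 6 of 7. Between 2 hours and 1 day the median ranged from -0.19 without LG11 to -0.37 without LG04, and it was -0.31 without the 1 day library of LG04 alone. Markers of other cell types differed in the same comparisons. At 2 hours the T-cell markers were below pre-treatment in 6 of 6 (median log2 change -0.55, 4 with an unadjusted edgeR p under 0.05, 0 called), with a summed level of 770 to 842 CPM before treatment and 489 to 612 at 2 hours. The monocyte markers were above in 7 of 7 (median 1.84, 4 with an unadjusted edgeR p under 0.05, 0 called), with summed levels of 397 to 2076 and 1039 to 5865 CPM. Of all 11545 genes tested, 481 were higher and 377 lower at 2 hours with an unadjusted edgeR p under 0.05. From 2 hours to 1 day the T-cell median was 0.26 and the monocyte median -0.69. By animal the monocyte median was -2.14 in LG04, 0.48 in LG11, 0.46 in LG12 and -2.51 in LG15. The LG04 value uses the 1 day library that stood nearest to LG15. Platelet markers were higher in 6 of 6 tested (median 1.93, 6 with an unadjusted edgeR p under 0.05, 0 called). Of all 11545 genes tested, 822 were higher by that rule between 2 hours and 1 day. Neutrophil markers were lower in 6 of 6 (median -0.87, 0 called). The B-cell median was 0.37 and the NK-cell median -0.12. The part of these cell types in the interferon-linked members was not tested.

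TRIM25, which ubiquitinates the RNA sensor RIG-I, had the smallest p of the family. In LG11 it stood at 121, 156, 186 and 110 CPM before treatment and at 30 minutes, 2 hours and 1 day. In LG15 it stood at 73.6, 76.6, 133 and 67.2 CPM, and in LG04 at 92.0, 71.0, 93.1 and 69.0. In LG12 it stayed between 86.7 and 98.5 CPM. The 2 hour level was thus highest of the 4 times in 3 animals, by little in LG04, and the time groups overlapped. At each time LG11 was the highest animal. The log2 change was 0.37 ± 0.17 (SE) at 2 hours against pre-treatment (edgeR unadjusted p = 0.049, adjusted p = 0.67) and -0.55 ± 0.17 at 1 day against 2 hours (unadjusted p = 0.0070, adjusted p = 0.27). At 2 hours it rested on 2 animals: it was 0.20 without LG15 and 0.28 without LG11, and 3 of 4 animals were higher.

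TRIM22 differed little between times. It stood at 265, 249, 276 and 268 CPM in LG04 in order of time, at 319, 346, 438 and 325 in LG11, at 374, 406, 389 and 331 in LG12, and at 270, 267, 304 and 247 in LG15. Every animal was higher at 2 hours than before treatment and lower at 1 day than at 2 hours, and before treatment alone the animals spanned 265 to 374 CPM. The log2 change was 0.19 ± 0.12 at 2 hours (edgeR adjusted p = 0.75) and -0.25 ± 0.12 from 2 hours to 1 day (unadjusted p = 0.046, adjusted p = 0.39). In LG04 the scaling matters: in CPM of the plain total TRIM22 went from 249 before treatment to 127 at 2 hours, while the globin share went from 20.3% to 48.7%. On that plain scale LG04 went from 86.3 to 42.7 in TRIM25 and from 9.74 to 5.95 in TRIM21. TRIM58 went up, from 500 to 957.

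TRIM5, the capsid-binding factor that restricts retroviruses, differed between animals more than between times. LG11 had 56.6, 63.4, 75.7 and 62.9 CPM, and the other 12 libraries lay between 22.5 and 52.2. In the other animals it went from 22.5 to 26.8, 29.8 and 26.9 CPM in LG04, from 35.4 to 36.6, 32.9 and 52.2 in LG12, and from 30.2 to 32.6, 29.5 and 31.2 in LG15. No library of LG11 overlapped another animal. The log2 change at 1 day was 0.26 ± 0.15 (edgeR adjusted p = 0.52), higher in 4 of 4 animals.

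TRIM21, the cytosolic antibody receptor, stood at 10.4, 18.2, 13.0 and 19.7 CPM in LG04, at 18.8, 11.6, 21.3 and 17.3 in LG11, at 16.5, 18.7, 16.7 and 11.6 in LG12 and at 16.5, 22.8, 24.5 and 10.3 in LG15. The animals took different courses and the groups overlapped. Its log2 change at 2 hours was 0.27 ± 0.28 (edgeR adjusted p = 0.88). At 1 day it was -0.06, and -0.30 without the 1 day library of LG04.

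TRIM38 stood at 67.5, 61.2, 63.3 and 57.2 CPM in LG04, at 81.2, 83.9, 103 and 113 in LG11, at 102, 86.7, 92.9 and 119 in LG12 and at 62.5, 72.0, 73.9 and 52.2 in LG15. At 1 day it was the highest of the 4 times in LG11 and LG12 and the lowest in LG04 and LG15. Its log2 change against pre-treatment was -0.03 at 30 minutes, 0.08 ± 0.16 at 2 hours (edgeR adjusted p = 0.94) and 0.07 at 1 day (0.14 without the 1 day library of LG04).

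TRIM14, a RING-less adaptor of the mitochondrial antiviral protein MAVS, and TRIM56, which acts on the DNA-sensing protein STING, fall outside the rule for named genes and were picked after their values were seen. TRIM14 went from 78.1 CPM at 2 hours to 41.6 at 1 day in LG11, and between 2 hours and 1 day its log2 change was -0.42 ± 0.16 (edgeR unadjusted p = 0.020, adjusted p = 0.32), lower in 4 of 4 animals. Without LG11 it was -0.19. Without the 1 day library of LG04 the change from 2 hours to 1 day was -0.51 for TRIM14, -0.55 for TRIM25 and -0.31 for TRIM22. TRIM56 was also lower in 4 of 4 animals, by -0.31 ± 0.25 (adjusted p = 0.68). With TRIM22, TRIM25 and TRIM37, a ligase of centrosomes and peroxisomes, TRIM14 made up the 4 of 37 members with an unadjusted p under 0.05 and a lower level at 1 day than at 2 hours. Of all genes tested, 5.48% met the same rule. TRIM3, TRIM14, TRIM22, TRIM56 and TRIM66 were lower in 4 of 4 animals (background 9.16%), and TRIM35, TRIM65 and TRIM68 higher in 4 of 4 (background 11.3%).

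**Figure D3:**
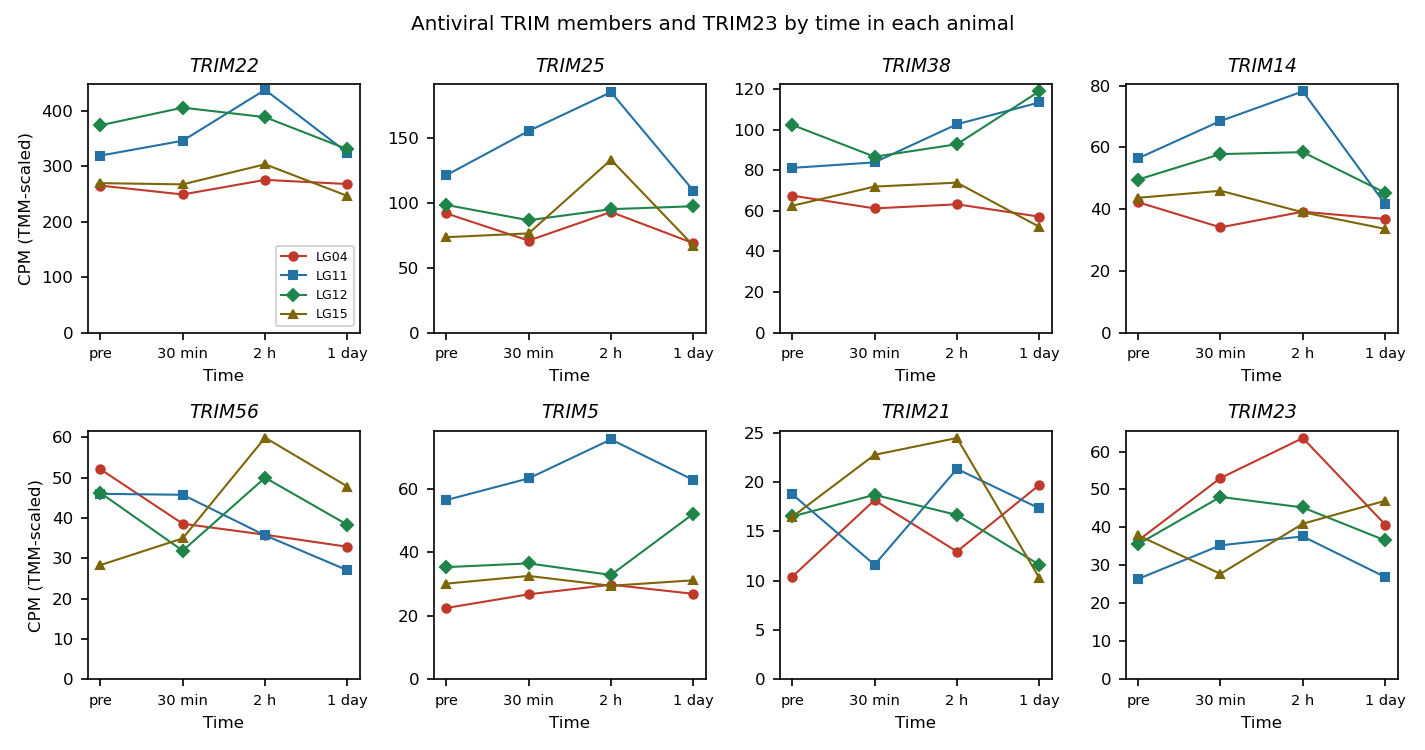
TMM-scaled CPM of 7 antiviral members and TRIM23 at the 4 times, with 1 line for each animal and axes from 0. TRIM25 in LG11 and LG15 was highest at 2 hours (186 and 133 CPM), and TRIM5 in LG11 stood above the other animals at every time (56.6 to 75.7 CPM).

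A companion list of type I interferon-stimulated genes outside the family had its highest median at 2 hours and its lowest at 1 day. By animal its median at 2 hours against pre-treatment was 0.66 in LG04, 0.39 in LG11, 0.21 in LG12 and 0.05 in LG15. LG04 was thus highest here, and LG11 in the interferon-linked members. In LG15 the summed list was at 1185 CPM before treatment and 1145 at 2 hours. Of 23 tested genes 20 were above pre-treatment at 2 hours with a median log2 change of 0.34. In edgeR 0 were called and 4 had an unadjusted p under 0.05, all higher (481 of all 11545 genes). DESeq2 called 1. At 1 day 21 were below pre-treatment with a median of -0.67. In edgeR 0 were called and 13 had an unadjusted p under 0.05, all lower (592 of all 11545 genes). DESeq2 called 7. Between 2 hours and 1 day 23 of 23 were lower with a median of -0.90, and edgeR called 4: IFI44, XAF1, IFI44L and MX1. DESeq2 called 9. IFI44, the one with the smallest p, had a log2 change of -1.66 ± 0.20 (edgeR adjusted p = 0.0066). The number called by edgeR was 0 without any one of the 4 animals and 1 without the 1 day library of LG04. In each animal the summed level of the list was lowest at 1 day (848 CPM in LG04, 1415 in LG11, 805 in LG12 and 885 in LG15). The summed interferon-linked TRIM members were lowest at 1 day in 3 animals (699 CPM in LG11, 696 in LG12, 489 in LG15), while LG04 had 511 CPM at 1 day and 499 at 30 minutes. Before treatment these sums were 552 CPM in LG04, 701 in LG11, 724 in LG12 and 526 in LG15. In LG11 the sums before treatment and at 1 day were thus nearly equal. TRIM22 alone held 325 CPM of the LG11 sum at 1 day. Whether the family's steps differ from those of the list was not tested.

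Of the 15 tested genes of RIG-I and MAVS signalling, the pathway that TRIM25 and TRIM14 act in, 0 were called at any time in edgeR, and 2 had an unadjusted p under 0.05 at 2 hours, 1 in each direction. Their median log2 change was 0.02 at 2 hours and -0.12 between 2 hours and 1 day. Family members under other symbols were tested for PML, MID2 and MEFV. MEFV, which encodes the inflammasome protein pyrin, went from 22.0, 38.7, 8.94 and 22.6 CPM in LG04, LG11, LG12 and LG15 before treatment to 69.0, 58.4, 16.7 and 95.9 at 2 hours. All 4 animals were higher, with a log2 change of 1.37 ± 0.39 (edgeR unadjusted p = 0.0041, adjusted p = 0.35). The part of the monocyte markers, which were also above pre-treatment at 2 hours, in the level of MEFV was not tested. PML was at -0.05 ± 0.25 (adjusted p = 0.98).

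Among the other regulators of innate signalling 9 of 10 listed members were tested, and 1 had an unadjusted p under 0.05 at 2 hours. This was TRIM23, a ligase that also carries an ADP-ribosylation-factor domain. It stood at 36.5, 53.0, 63.6 and 40.7 CPM in LG04 in order of time, at 26.4, 35.3, 37.6 and 26.9 in LG11, at 35.6, 48.0, 45.2 and 36.6 in LG12 and at 37.9, 27.7, 41.0 and 47.0 in LG15. The 2 hour level was above pre-treatment in 4 of 4 animals, and the groups overlapped. In CPM of the plain total, LG04 instead went from 34.3 before treatment to 29.2 at 2 hours. The log2 change was 0.45 ± 0.19 (edgeR unadjusted p = 0.032, adjusted p = 0.63). It was 0.32 without LG04 and 0.56 without LG15. TRIM23 and TRIM25 were the 2 of 37 members with a higher level and an unadjusted p under 0.05 at 2 hours, and 4.17% of all genes met that rule.

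The chromatin co-regulators TRIM24, TRIM28, TRIM33 and TRIM66 carry a plant homeodomain finger and bromodomain and were all tested. At 2 hours 3 of 4 and at 1 day 4 of 4 were below pre-treatment with a median log2 change of -0.15 at 1 day, and 0 were called (0 with an unadjusted p under 0.05). TRIM28 stood at 138, 138, 102 and 75.6 CPM in LG04, at 127, 106, 72.1 and 87.5 in LG11, at 120, 78.2, 110 and 143 in LG12 and at 83.2, 140, 135 and 120 in LG15. LG04 and LG11 were lower and LG12 and LG15 higher at 1 day than before treatment. The change at 1 day was -0.16 ± 0.26 (edgeR adjusted p = 0.89), and 0.02 without the 1 day library of LG04. TRIM33, a partner of SMAD proteins, held between 120 and 235 CPM in all libraries. TRIM24, a co-regulator of nuclear receptors, held between 32.8 and 44.8 CPM and had the smallest spread of the 37 tested members (SD 0.17 on the log2 scale).

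TRIM58, known for dismantling the dynein motor in late erythroblasts, had the widest range in the family. It stood at 533, 1332, 2083 and 437 CPM in LG04 in order of time. It stood at 43.9, 99.3, 45.5 and 39.6 in LG11, at 1.17, 2.13, 1.73 and 2.90 in LG12, and at 122, 68.3, 180 and 530 in LG15. LG12 lay below all other libraries and LG04 at 30 minutes and 2 hours above all others. At 2 hours in LG04, TRIM58 alone took 59.4% of the counts of the family, against 0.105% in LG12. The log2 change against pre-treatment was 0.84 ± 0.63 at 30 minutes, 0.94 ± 0.63 at 2 hours and 0.99 ± 0.66 at 1 day (edgeR adjusted p = 1.0, 0.78 and 0.60). The value at 1 day was -0.08 without LG15, and 1.55 ± 0.60 without the 1 day library of LG04 (edgeR unadjusted p = 0.024, adjusted p = 0.32).

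The globin share of the counts moved with TRIM58. It was 20.3%, 38.2%, 48.7% and 13.6% in LG04, 4.68%, 10.4%, 4.81% and 3.65% in LG11, and 6.10%, 3.36%, 10.6% and 20.8% in LG15, in order of time. In LG12 it was between 0.0253% and 0.172%. The 4 libraries of an animal fell in the same order by TRIM58 and by globin in 3 of 4 animals, the exception being LG12. In the fit all 7 red-cell markers were above pre-treatment in each of the 3 comparisons (median log2 changes of 0.84, 0.86 and 1.39). Of these 0 were called in edgeR and 0 had an unadjusted p under 0.05. The median of the markers was above 0 in 2 of 4 animals in each comparison. The part of red cells in TRIM58 was not tested. Without TRIM58, the summed level of the family lay between 1220 and 1722 CPM in every library, and with it between 1354 and 3506 CPM.

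TRIM59, a membrane-anchored member, and TRIM67, a microtubule-linked member known from neurons, were also highest in LG04. TRIM59 stood at 30.2, 75.5, 107 and 13.8 CPM there, and LG15 at 1 day was the highest library after the 30 minute and 2 hour ones of LG04. Its order followed the globin share in 2 of 4 animals. TRIM67 had 29, 69 and 56 counts in LG04 before treatment and at 30 minutes and 2 hours, and 0 to 3 counts in each of the other 13 libraries. In the library labelled LG04 at 1 day it had 0 of 1846011 counts, which allows up to 1.63 CPM of the plain total (a limit that covers counting error only), while TRIM67 was at 4.56 CPM of the plain total in LG04 before treatment. TRIM10, the other red-cell linked member, was at 0 in all libraries.

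**Figure D4:**
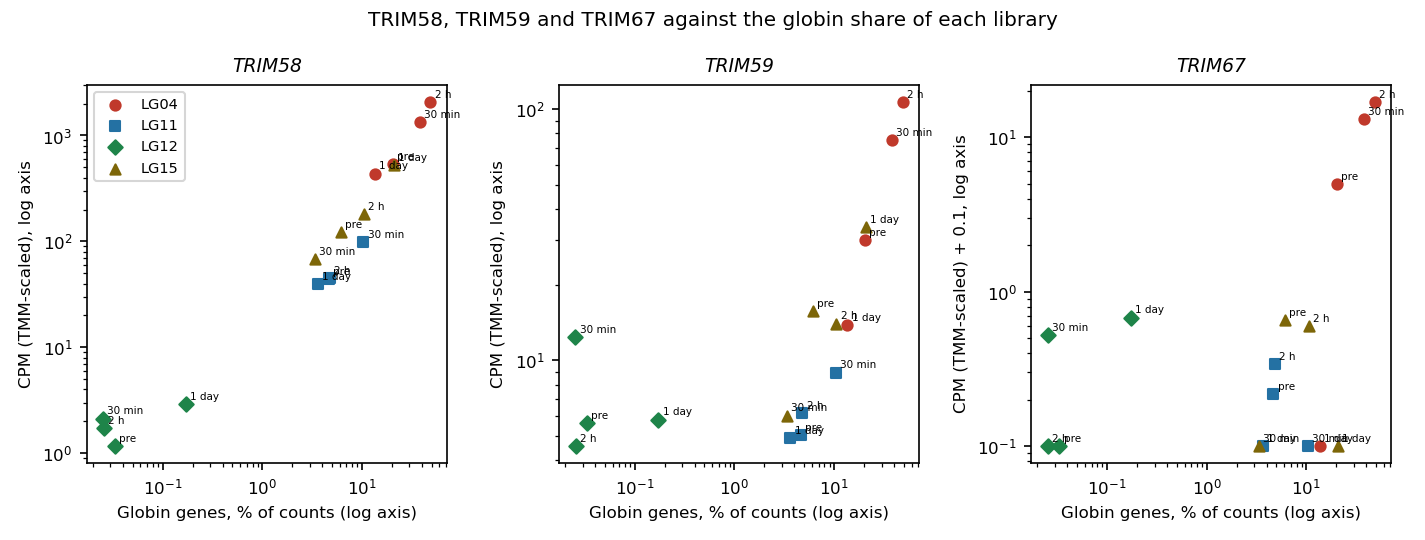
TMM-scaled CPM of TRIM58, TRIM59 and TRIM67 (TRIM67 plus 0.1) against the share of counts on globin genes in each of the 16 libraries, both on log axes, coloured by animal and labelled by time. TRIM58 runs from 1.17 CPM in LG12 to 2083 CPM in LG04 at 2 hours, where globin took 48.7% of the counts, and TRIM67 was above 4 CPM in 3 libraries of LG04.

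Differences between animals were larger than those between times. The animal held a median of 45.0% of the variance of a tested member and the time 7.06%, against 46.4% and 12.1% for all genes tested. In 31 of 37 members the animal's share was the larger. A test of the 3 animal terms, added after the data were seen and with the 4 bleeds of an animal as its replicates, called 17 of 37 members (edgeR adjusted p under 0.05), and 44.5% of all genes tested were called, so the members' share is near the background. It called 10 without LG11, 8 without LG12 and 18 without the 1 day library of LG04. The called members were led by TRIM58, TRIM52 and TRIM36.

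In 9 of 37 members 1 animal stood apart from the other 3 in all of its 4 libraries, or 24.3%, against 17.2% of all genes tested. TRIM36, a microtubule-associated ligase, stood at 25.3, 26.1, 29.5 and 36.7 CPM in LG11 and between 4.60 and 11.0 in the other 12 libraries. TRIM52, a member with an enlarged RING finger and no SPRY domain, stood at 18.5, 18.1, 18.5 and 17.0 CPM in LG15. In LG11 and LG12 it was between 40.5 and 54.6, and in LG04 at 45.7, 42.0, 39.2 and 27.6. TRIM36 was thus high in LG11 alone and TRIM52 low in LG15 alone, with no overlap between these animals and the rest. LG12 was above the other animals in TRIM13, TRIM44, TRIM66 and TRIM68 and below them in TRIM35 and TRIM58, and LG11 was above them in TRIM5. In LG12, TRIM13, a ligase anchored in the endoplasmic reticulum, held 29.5 to 48.9 CPM, against 14.6 to 22.6 in the other animals. TRIM35 held 0 to 2.32 CPM in LG12, against 4.69 to 19.8 in the others. These genes were picked after their values were seen. Reads were counted on human gene models, and the part of sequence differences between animals in such counts was not tested.

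**Figure D5:**
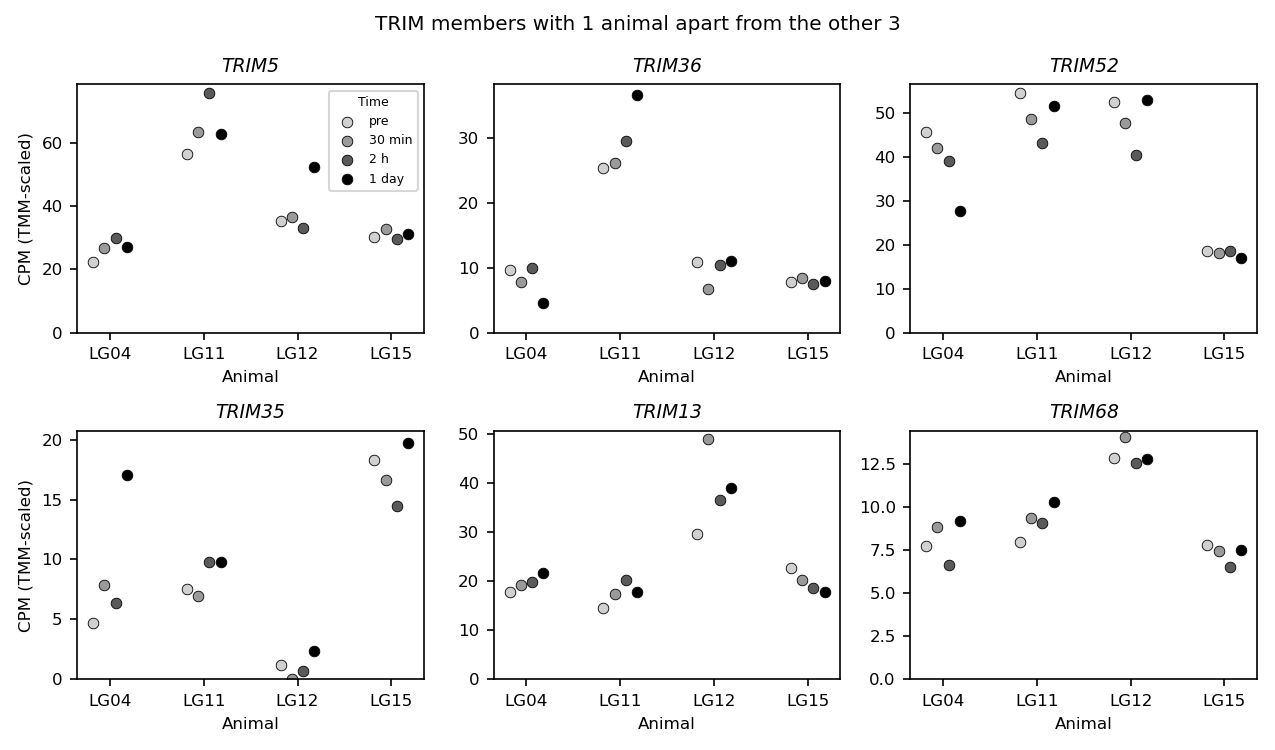
TMM-scaled CPM of 6 members in which 1 animal stood apart from the other 3, by animal (horizontal axis) and time (grey scale, pale before treatment to black at 1 day). TRIM36 was highest in LG11 (25.3 to 36.7 CPM) and TRIM52 lowest in LG15 (17.0 to 18.5 CPM). The 1 day library of LG04 lay outside the other 3 of that animal in all panels but TRIM5.

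The library labelled LG04 at 1 day lay outside the range of the other LG04 libraries in 6 of these 9 members. Its TRIM35 level was 17.1 CPM, against 4.69 to 7.87 in the other LG04 libraries and 14.5 to 19.8 in LG15, and its TRIM52 level of 27.6 was between those of LG04 and LG15. TRIM36 (4.60 CPM, against 7.87 to 9.94) and TRIM58 were below that range, and TRIM13 (21.7, against 17.8 to 19.9) and TRIM68 (9.20, against 6.63 to 8.80) above it. The platelet markers summed to 30009 CPM in it and to 24608 in LG15 at 1 day, and to at most 9027 elsewhere. TRIM35 had the smallest p of the members at 1 day against pre-treatment, with a log2 change of 0.73 ± 0.37 (edgeR adjusted p = 0.43). Without that library it was 0.44 ± 0.38, and without LG04 0.29 ± 0.40.

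The remaining groups were low in these cells. TRIM2, TRIM3 and TRIM32, which carry NHL repeats, were tested at mean levels of 1.12, 3.06 and 3.52 FPKM, and 0 of 3 were called at any time (0 with an unadjusted edgeR p under 0.05). TRIM2 was at 8.04, 21.2, 32.2 and 4.60 CPM in LG04 and between 1.83 and 10.6 in the other animals. The muscle RING fingers TRIM55 and TRIM63 were tested at 1.07 and 1.10 FPKM and TRIM54 had 1 count in all. TRIM55 had the largest positive log2 change of the family at 2 hours, 1.10 ± 0.60 (edgeR adjusted p = 0.71), which is not distinguishable from 0 at its 171 counts over 16 libraries. TRIM9, a further microtubule-linked member, had 95 counts in all, TRIM6 55, TRIM69 27 and TRIM71 20. TRIM6 was at 0 in all 4 libraries of LG04.

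The 25 members at 0 in every library were uncounted rather than shown to be silent. Of the 6 members of the major histocompatibility region 4 (TRIM10, TRIM15, TRIM39 and TRIM40) were at 0, and TRIM26 and TRIM31 had 1 count each. In the macaque gene table these 6 lie in 1 run, with at most 2 other protein-coding genes between neighbours. Of 17 genes listed as primate copies 14 are in the count table and 12 of those were at 0. The list holds groups of similar genes, for which counting can split or discard reads. The part of this in the zeros was not tested. Over all libraries, 3 counts correspond to 0.0387 CPM of the plain total, and in single libraries to 0.350 to 2.12 CPM. The 11 members with more than 1 entry in the count table had at most 4 counts each (TRIM27).

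TRIM34 shows that a count near 0 need not mean a low level in the other deposited table. It had 10 counts over 16 libraries but a mean of 4.002 FPKM, the 22nd highest of the family. It was at 6.07, 8.93, 10.2 and 10.8 FPKM in LG12 in order of time, and at 1.41, 6.88, 2.85 and 5.03 in LG11. In LG04 and LG15 it lay between 0.714 and 3.17 FPKM. LG12 was thus above the other animals at each time, with the groups of times overlapping (2.57 ± 2.34, SD, n = 4, before treatment, and 4.47 ± 4.63 at 1 day). The readthrough gene TRIM6-TRIM34, whose model overlaps those of TRIM6 and TRIM34, had 8 counts and 0.631 FPKM, and TRIM39-RPP21 had 0 counts and 0.550 FPKM. How much the overlap takes from the counts was not tested, and the 3 genes are uncertain in both tables. In the macaque gene table TRIM22, TRIM5 and TRIM6 lie in another such run, and TRIM22 had 24838 counts over the 16 libraries, TRIM5 3397 and TRIM6 55.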

How the data were processed

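Total RNA libraries of 16 blood samples were used, with groups taken from the sample titles, which name animal and time. The deposited count tables hold unnormalized whole-number counts per gene, made by the authors with STAR, HTSeq and human build GRCh37/hg19 among the tools and builds in the submitters' processing notes, with no versions given. The program behind the deposited FPKM tables of the authors is not given in the sources used here. Macaque reads were thus counted on human gene models, and the strand setting of the counting is not given in the sources used here. The tables per animal were used, and rows of the same symbol were summed (91 entries gave 80 members). Series-wide tables of the same libraries were not used here.

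Genes were tested with edgeR 4.0.16 in R 4.3.3 (TMM, filterByExpr, glmQLFTest) on the 16 libraries together, with terms for time and animal (9 residual degrees of freedom). P-values were adjusted by Benjamini-Hochberg over 11545 genes, with a threshold of 0.05. The SE of a log2 change is its size divided by the square root of F. Changes per animal are on log2 CPM with a prior count of 2. The animal block rests on the design: deviations from the time means correlated within animals with a median r of 0.56 over 24 pairs, 23 of them over 0.1. Nothing beyond the 4 animals replicates a time. Alternatives were RLE scaling, no count filter, DESeq2 1.42.0, no block, leaving out each animal, the 4 shallowest libraries or LG04 at 1 day, and removing globin genes. The test between animals and its alternatives were added after seeing the data. The fit was tested on simulated data that held no differences between animals, so that test does not show how the animal block performs. Members and lists were chosen with earlier results of these data known. Values in each animal are printed for members called in any of the 6 tests over time, those with an unadjusted p under 0.05 against pre-treatment, the 4 of highest mean FPKM, and TRIM5, TRIM21, TRIM22, TRIM25, TRIM28 and TRIM58. The planned promoter motif count was not run, and no sequences are given.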

Additional observations from a re-analysis of the deposited data

Results flagged for a closer look

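Within the 4 libraries of a time, the gap of 1 library to its nearest neighbour was set against the whole range for 16 members (64 groups of 4). Of these 12 exceeded Dixon's critical value for 4 samples, over 6 members. Chance flags about 1 in 20 groups of values that were not chosen. These members include those named because 1 animal stood apart, and the same animal recurs, so the count is a description only.

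LG04 was above the other animals in TRIM58 at 30 minutes (1332 CPM, next 99.3) and 2 hours (2083 CPM, next 180), and in TRIM59 at the same times (75.5 and 107 CPM). It was also above them in TRIM67 before treatment (4.86 CPM), at 30 minutes (12.9 CPM) and at 2 hours (16.9 CPM). LG04 held the highest globin share at each of these times. LG11 was above the others in TRIM36 at 30 minutes (26.1 CPM) and 2 hours (29.5 CPM) and in TRIM5 at 2 hours (75.7 CPM, next 32.9). LG15 was below the others in TRIM52 at 2 hours (18.5 CPM, next 39.2). TRIM67 in LG12 at 1 day (0.580 CPM) rests on 1 count against 0 in the other 3 animals.

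In the deposited FPKM tables, which the tests do not use, TRIM34 (mean 4.002 FPKM), TRIM6-TRIM34 (0.631) and TRIM39-RPP21 (0.550) had signal while their counts were at or near 0.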

How the results depend on the processing

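The number of members called over time was 0 under each of the 11 alternatives in all 6 tests. The number called between animals was 8 to 16 across the fits that leave out 1 animal. The members' median at 1 day against pre-treatment ranged from -0.08 to 0.13 when 1 animal was left out, and that at 1 day against 2 hours went from -0.03 to 0.073 without the 4 shallowest libraries. Over all genes DESeq2 called 75 at 2 hours, 378 at 1 day and 107 between them, against 0, 26 and 12 in edgeR.

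The 24 single log2 changes of named members against pre-treatment were each refitted under the 11 alternatives, which gave 264 values. Of these values 21 had the opposite sign, all of them uncalled. They fell on 12 of the 24 changes. Leaving out 1 animal gave ranges at 30 minutes of -0.0011 to 0.43 for TRIM21, -0.027 to 0.046 for TRIM22, -0.21 to 0.053 for TRIM25, -0.26 to 0.079 for TRIM28 and -0.12 to 0.0063 for TRIM38. At 2 hours it gave -0.46 to 0.0024 for TRIM28 and -0.0073 to 0.15 for TRIM38. At 1 day it gave -0.38 to 0.10 for TRIM21, -0.11 to 0.0043 for TRIM22, -0.34 to 0.030 for TRIM28, -0.044 to 0.18 for TRIM38 and -0.080 to 1.5002 for TRIM58. Without the 4 shallowest libraries TRIM22 was at -0.056 and TRIM28 at 0.14 at 30 minutes. TRIM22 was at -0.00058 at 30 minutes with globin genes removed, and TRIM28 at 0.017 at 1 day without LG04 at 1 day. Without the replicate block TRIM25 was at 0.015 at 30 minutes. Ignoring the pairing left 0 members called over time. Over all genes it took the calls at 1 day against pre-treatment from 26 to 3. Between 2 hours and 1 day they went from 12 to 0, and those of the interferon-stimulated list from 4 to 0. The cause of these changes was not tested.

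Depth limits the low members: a library's 3 counts are worth up to 2.12 CPM. The 18 counted members left out by the filter were fitted only in DESeq2 and without the count filter, with 0 called over time. Of them 10 had 1 to 9 counts over all libraries, too few for the lack of a call to be informative.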
